A study of Mus musculus with 9 samples.

Results

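Inguinal fat of adipocyte-selective Tet1 knockout mice (Adi-Tet1KO, labelled KO) was compared with that of floxed controls (WT) after a short cold exposure. The libraries were taken by the names of the count columns, which gave 5 of the 9 RNA-seq libraries of the series, namely WT mice 1773, 1783 and 1812 and KO mice 1781 and 1782, each mouse giving 1 library. All 5 mice had been kept at 4 °C for 4 h. WT mice carried the floxed Tet1 allele and KO mice the floxed allele with Fabp4-Cre, on a C57BL/6 background by the labels, and all were fed chow; ages are not stated. The Fabp4 promoter also drives Cre outside adipocytes, macrophages included. The labels describe flash-frozen inguinal white adipose tissue and the study describes fractionated adipocytes, and how many stromal or immune cells a sample held was not recorded. The 4 libraries at room temperature (2 WT, 2 KO) entered the same fit and are used below only beside the cold values.

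Inguinal fat is a white depot that holds beige adipocytes, cells that switch on a brown-fat program when the sympathetic nerves signal cold. Noradrenaline acts through beta-adrenergic receptors and cAMP to release fatty acids and to induce Ucp1, the uncoupling protein that lets mitochondria burn fuel as heat. TET1 is a dioxygenase that oxidises 5-methylcytosine, the first step of active DNA demethylation, and it also binds histone deacetylases. The question asked of these mice was whether loss of Tet1 from adipocytes alters this program in the cold.

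The labels conflict for 2 KO libraries. Mouse 1781 is a room temperature mouse by its sample title and a cold mouse by its column name, and for mouse 1786 it is the reverse. The column names were followed, and the counts of calls, the list values and the log2 fold changes after cold were computed again by the titles' grouping and with both mice left out. A fit of the 5 WT libraries alone called 61 genes higher and 43 lower in cold than at room temperature. The median log2 level of the 61 genes over the room temperature WT mean was 1.21 to 1.36 in the 3 WT mice after cold, 1.33 in KO mouse 1782 and 1.19 in KO mouse 1781, against 0.26 in mouse 1786 and 0.35 in mouse 1814. For the 43 lower genes the medians were -1.14 to -1.04 in WT, -1.13 in mouse 1782 and -1.001 in mouse 1781, against -0.09 and -0.28 in mice 1786 and 1814. Both sets of genes thus placed mouse 1781 beside the cold mice and mouse 1786 beside the room temperature mice.

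Library totals were 47605902 to 56292251 counts over the series, and the quasi-likelihood test of edgeR was run on 16745 genes. Levels are CPM, the counts of a gene scaled to a common TMM-normalised library size, and values of a gene are given in the order WT mice 1773, 1783 and 1812, then KO mice 1781 and 1782. A gene was called at a Benjamini-Hochberg adjusted p under 0.05 with a fold change over 1.5. Nothing in the labels says more than that each library came from a different mouse, and p-values measure the spread between these mice.

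Tet1 itself was not lower in the libraries labelled KO. Its level was 5.33, 3.87 and 3.98 CPM in WT and 10.2 and 5.30 CPM in KO, and KO mouse 1781 had the highest value. The means were 4.39 ± 0.811 CPM (SD, n = 3) and 7.74 ± 3.45 CPM (SD, n = 2). A one-sided exact permutation test for a lower level in KO gave p = 0.9 over 10 arrangements, where 0.1 is the smallest possible, and p = 0.2 for a higher level. At room temperature Tet1 was at 4.51 and 4.01 CPM in WT and 12.3 and 5.91 CPM in KO, so it was not lower there either. The paper reports, by qPCR, a Tet1 knockdown in purified adipocytes of these mice and no significant change in the stromal fraction. Reads were counted here over the whole gene, which cannot show the loss of an exon. Whether adipocytes or whole fat were sequenced is not settled. The cause of the difference from the qPCR was not tested. These counts do not check the genotype labels, and directions below are those of the labels. Among the related dioxygenases and partners, Tet2 had 24.0 to 35.2 CPM in WT and 38.0 and 35.5 CPM in KO, and Tet3 and Hdac1, a histone deacetylase, had overlapping groups with log2 fold changes of 0.09 (SE 0.17) and -0.10 (SE 0.10).

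After cold, 13 genes were called higher in KO (0.0776% of the genes tested) and 0 were called lower (0%). The 13 include the overlapping models Gm44502 with Cpt1b and Abi3 with Phospho1, whose calls are not separate. At an unadjusted p under 0.05 there were 556 higher (3.32%) and 464 lower genes (2.77%). Both KO libraries lay above all 3 WT libraries in 1679 genes (10%) and below them in 1519 (9.07%). The called counts depended on the tool, since DESeq2 called 66 higher and 35 lower genes and edgeR's likelihood ratio test 74 and 30, and each of these included all 13 genes. The median log2 fold change over all genes tested was 0.01, with 8629 positive and 8116 negative values. With the grouping of the titles 8 genes were higher, 6 of them among the 13, and 16 were lower; without both mice of uncertain housing 21 were higher, 11 of them among the 13, and 6 were lower.

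The called genes included genes of fatty acid use, phospholipid turnover and the beige program. Slc27a2 encodes FATP2, a fatty acid transporter and very long chain acyl-CoA synthetase, and had the lowest p of the genes tested (chromosome 2, 126552407 to 126588243, mm10). It was at 2.66, 1.94 and 2.35 CPM in WT and 25.4 and 33.3 CPM in KO. The log2 fold change was 3.66 (SE 0.22, adjusted p = 0.00174), a 12.7-fold higher level. Cpt1b encodes the muscle-type carnitine palmitoyltransferase that admits long-chain fatty acids to mitochondria. Its level was 11.5, 9.39 and 17.7 CPM in WT and 91.2 and 98.3 CPM in KO (log2 fold change 2.88, SE 0.27, adjusted p = 0.00766). Gm44502, a predicted read-through gene (chromosome 15, 89416405 to 89429696) that spans Cpt1b (89416405 to 89425863) and Chkb on the same strand, was at 36.8 to 45.5 CPM in WT and 130 and 134 CPM in KO. Counts of the overlapping models cannot be told apart, and Chkb, a choline kinase, was at 27.6 to 32.1 CPM in WT and 39.6 and 36.9 CPM in KO and was not called.

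**Figure D1:**
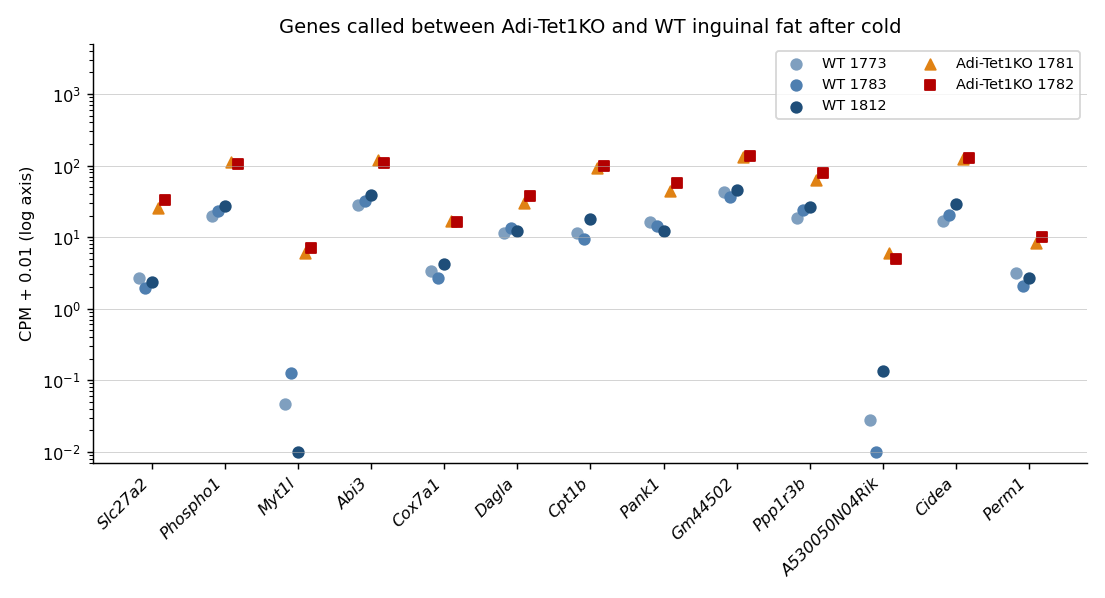
CPM + 0.01 on a log axis for the 13 genes called between KO and WT after cold, ordered by p, with 1 point per library (circles for 3 WT mice, triangle and square for 2 KO mice). Both KO points lie above all WT points in each gene, and the KO mice lie close together, for example at 16.6 and 16.3 CPM for Cox7a1.

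CpG dinucleotides and nuclear receptor letters were read in the promoters, since the 5-methylcytosine that TET enzymes oxidise stands mostly in CpG and AGGTCA is the letter core of nuclear receptor sites such as those of PPAR proteins. The RefSeq promoter table (GRCm38.p6) held a window of 250 bases before the start for 6 of the 13 called genes, namely Slc27a2, Phospho1, Myt1l, Cox7a1, Pank1 and Perm1. These genes had 11 windows. AGGTCA stood on either strand in 3 of the 11, 1 each of Slc27a2, Myt1l and Perm1, beside 14.0% of 32851 windows of all genes. By gene this is 3 of 6, beside 15.8% of 27025 genes with a window. The cAMP response element TGACGTCA stood in 0 of the 11, beside 1.55% of all windows. The windows held from 3 CpG (Myt1l, the first of its 5 windows) to 34 CpG (Phospho1), beside a median of 6 over all windows. Shown are Slc27a2, the gene of lowest p, Perm1, and Ucp1, whose level separated the groups without a call; capitals mark AGGTCA or its complement TGACCT.
Slc27a2 (GRCm38.p6, chr2:126552774-126553023, plus strand): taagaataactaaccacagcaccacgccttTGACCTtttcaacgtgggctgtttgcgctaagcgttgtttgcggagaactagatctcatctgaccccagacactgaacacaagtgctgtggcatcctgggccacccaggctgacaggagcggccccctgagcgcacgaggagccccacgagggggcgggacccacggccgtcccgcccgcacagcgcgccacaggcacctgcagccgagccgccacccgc
Perm1 (GRCm38.p6, chr4:156215677-156215926, plus strand): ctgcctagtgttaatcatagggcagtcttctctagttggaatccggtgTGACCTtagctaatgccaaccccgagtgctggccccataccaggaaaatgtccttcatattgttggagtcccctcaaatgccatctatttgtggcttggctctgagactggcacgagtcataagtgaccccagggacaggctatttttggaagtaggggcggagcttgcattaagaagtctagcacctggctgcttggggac
Ucp1 (GRCm38.p6, chr8:83290098-83290347, plus strand): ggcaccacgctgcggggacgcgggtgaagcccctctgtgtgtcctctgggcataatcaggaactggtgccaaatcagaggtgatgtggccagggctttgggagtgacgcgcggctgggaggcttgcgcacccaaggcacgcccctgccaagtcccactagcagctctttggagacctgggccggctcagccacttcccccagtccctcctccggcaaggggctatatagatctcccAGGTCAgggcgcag
Counted from the RefSeq transcript start at the end of each window, the letters began 220 bases upstream in Slc27a2, 202 in Perm1 and 14 in Ucp1. The RefSeq starts of Slc27a2 and Perm1 lie downstream of the GENCODE gene starts given in the text, so the Slc27a2 window and the end of the Perm1 window fall inside those gene bounds. A match is a description of the sequence only.

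Further called genes act on phospholipids, coenzyme A and diacylglycerol. Phospho1 encodes a phosphatase of phosphocholine and phosphoethanolamine and was at 19.7, 23.0 and 26.9 CPM in WT and 113 and 104 CPM in KO. KO was at a log2 fold change of 2.23 over WT (SE 0.16, adjusted p = 0.00343). Abi3, an adaptor of actin regulation, lies on the other strand of chromosome 11 (95830074 to 95842476) and overlaps Phospho1 (95824499 to 95832140). It was at 28.3 to 38.7 CPM in WT and 118 and 108 CPM in KO. Abi3 had 1562, 1618 and 1848 counts in WT and 6050 and 5436 in KO, and Phospho1 1085, 1174, 1285, 5822 and 5196. With the strand setting not given the reads of the pair cannot be told apart. A rise of Abi3 apart from Phospho1 is therefore not shown. Pank1, a pantothenate kinase that starts coenzyme A synthesis (chromosome 19, 34806940 to 34879455), was at 16.2, 14.4 and 12.3 CPM in WT and 44.6 and 56.9 CPM in KO. Dagla makes the endocannabinoid 2-arachidonoylglycerol from diacylglycerol (chromosome 19, 10245265 to 10304877), and its levels were 11.5 to 13.4 CPM in WT and 30.04 and 37.7 CPM in KO. The log2 fold changes were 1.83 (SE 0.18, adjusted p = 0.00786) for Pank1 and 1.45 (SE 0.13, adjusted p = 0.00628) for Dagla.

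Ppp1r3b, which brings protein phosphatase 1 to glycogen and favours its synthesis (chromosome 8, 35375739 to 35388139), was at 18.6, 24.2 and 26.02 CPM in WT and 62.1 and 79.5 CPM in KO. KO was at a log2 fold change of 1.63 over WT (SE 0.17, adjusted p = 0.0133). Perm1, a muscle regulator that acts downstream of PGC-1 and ERR proteins (chromosome 4, 156215868 to 156221307), was low in all mice, at 2.07 to 3.12 CPM in WT and 8.29 and 10.1 CPM in KO. Its call (log2 fold change 1.81, SE 0.21, adjusted p = 0.0247) was lost when any 1 of the 5 cold libraries was left out, at adjusted p values of 0.0648 to 0.134. Glycogen phosphorylase Pygl, which breaks glycogen down, was at 106, 184 and 165 CPM in WT and 282 and 324 CPM in KO and was not called (log2 fold change 1.00, SE 0.27, adjusted p = 0.636).

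The called genes Myt1l and A530050N04Rik were nearly absent from WT libraries. Myt1l, a neuronal zinc finger repressor (chromosome 12, 29528384 to 29923213), had 2, 6 and 0 counts in WT and 311 and 353 counts in KO. The pooled ratio was 126-fold with a 95% exact counting interval of 63.5 to 293. A530050N04Rik, whose symbol had no single position in GENCODE vM21, had 1, 0 and 6 counts in WT and 303 and 244 counts in KO. Its pooled ratio was 119-fold (57.1 to 296). Single WT mice decide the size of both ratios: Myt1l was at 336-fold (92.8 to 2780) without WT mouse 1783, and A530050N04Rik at 573-fold (102 to 22700) without WT mouse 1812 and 79.2-fold (38.2 to 198) without WT mouse 1783. These intervals cover counting error only. At room temperature Myt1l had 2 counts in both WT mice and 323 and 369 in both KO mice, and A530050N04Rik had 2 and 0 counts in WT and 79 and 68 in KO, so the separation by genotype was present in both housings.

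Leaving out 1 cold library kept 7 to 12 of the 13 calls. Slc27a2, Phospho1, Abi3, Dagla and Myt1l were called without any 1 of the 5 mice, where Abi3 is not separate from Phospho1. Cpt1b had an adjusted p of 0.0648 without WT mouse 1773, and Gm44502 0.0648, 0.0834 and 0.056 when WT mouse 1773, WT mouse 1783 or KO mouse 1782 was left out. Pank1 had 0.0897 with WT mouse 1783 left out and 0.056 with KO mouse 1782 left out, and Ppp1r3b 0.108 and 0.0753. A530050N04Rik had 0.056 to 0.129 without WT mouse 1773 or 1783 or either KO mouse. With the grouping of the titles the calls of Slc27a2, Phospho1, Abi3, Dagla, Pank1, A530050N04Rik and Perm1 were lost, with Slc27a2 at an adjusted p of 0.157 and Dagla at 0.307.

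Cidea and Cox7a1, both thermogenic genes, were called. Cidea encodes a lipid droplet protein that marks brown and beige adipocytes. It was at 16.6, 20.3 and 29.4 CPM in WT and 123 and 127 CPM in KO (log2 fold change 2.50, SE 0.28, adjusted p = 0.0201). Cox7a1, the heart and muscle form of a cytochrome c oxidase subunit that is also high in brown fat (chromosome 7, 30184144 to 30186078), was at 3.30, 2.66 and 4.21 CPM in WT and 16.6 and 16.3 CPM in KO. KO was at a log2 fold change of 2.28 over WT (SE 0.20, adjusted p = 0.00628). Without WT mouse 1773 the adjusted p of Cox7a1 was 0.0538. Cidea lost its call without WT mouse 1773 or 1783 or without either KO mouse, at adjusted p values of 0.0815 to 0.215.

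Ucp1 was at 168, 147 and 213 CPM in WT and 1062 and 1483 CPM in KO, so that the lower KO mouse was above the highest WT mouse. The log2 fold change was 2.85 (SE 0.56), with an adjusted p of 0.324 in the fit of all 9 libraries, so Ucp1 was not called. In the fit of the 5 cold libraries alone the adjusted p was 0.0144, and it was 0.00662 with DESeq2 and 0.000229 with the likelihood ratio test. Ppargc1a, the coactivator PGC-1alpha that drives mitochondrial biogenesis, was at 37.5, 28.6 and 39.7 CPM in WT and 80.8 and 125 CPM in KO (log2 fold change 1.54, SE 0.32, adjusted p = 0.361). Elovl3, a fatty acid elongase of brown fat, was at 3.46, 3.33 and 3.67 CPM in WT and 14.6 and 14.9 CPM in KO (log2 fold change 2.08, SE 0.44, adjusted p = 0.381). In the fit of the 5 cold libraries alone the adjusted p was 0.104 for Ppargc1a and 0.0134 for Elovl3. It was 0.00206 and 0.00207 with DESeq2 and 0.00166 and 0.00307 with the likelihood ratio test. With the grouping of the titles it was 0.625 and 0.683. Ppara, a nuclear receptor that drives fatty acid oxidation genes, was at 22.0 to 25.8 CPM in WT and 43.0 and 72.4 CPM in KO, and Ucp3, a Ucp1 relative, at 18.3 to 23.1 CPM in WT and 37.4 and 49.96 CPM in KO. In these genes the groups did not overlap, and mouse 1782 had the higher KO value.

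Of 34 tested thermogenic and brown adipocyte genes, 2 were called higher and 0 lower. At an unadjusted p under 0.05, 16 of the 34 were higher and 0 lower, beside 3.32% and 2.77% of all genes. Both KO libraries were above all WT libraries in 16 genes and below them in 1, beside 10% and 9.07% of all genes. The 1 below was Eva1a, which was chosen here after its value was seen. The median log2 fold change was 0.48, beside 0.01 over all genes tested. The count of 16 was 18 without KO mouse 1781, 14 without KO mouse 1782 and 16 without each WT mouse, and 11 with the grouping of the titles. The list was written with earlier results of these data known, so its count is not independent evidence of its direction.

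**Figure D2:**
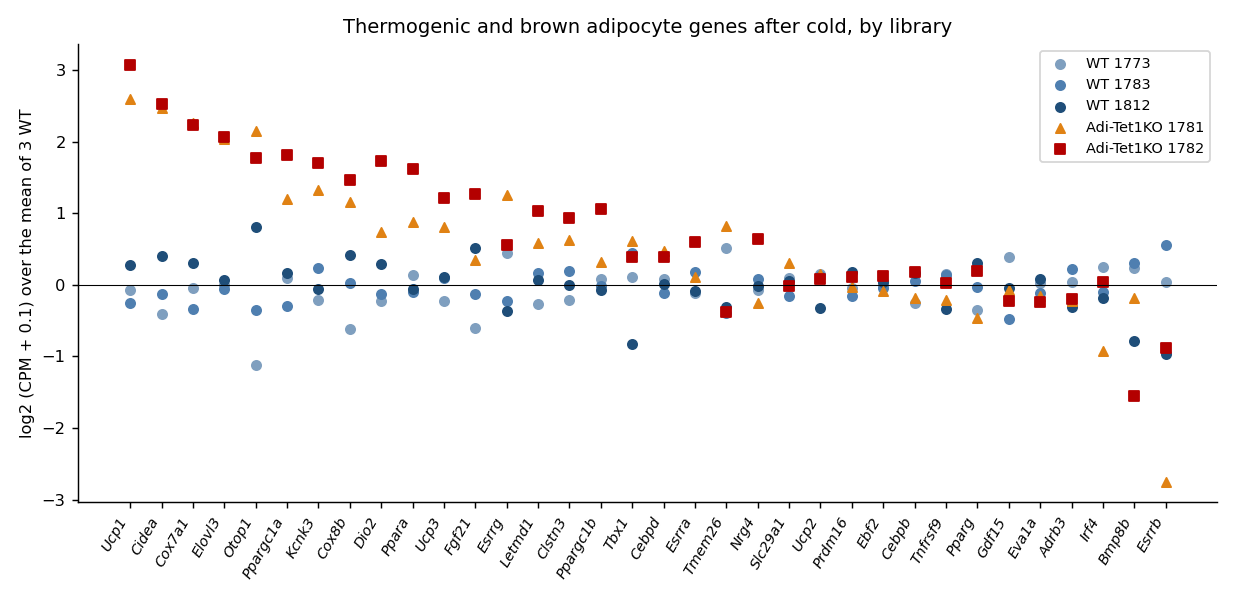
Each of the 34 tested thermogenic genes in the 5 cold libraries, as the log2 of CPM + 0.1 over the WT mean, ordered by the fitted fold change. The KO points stand above the WT points on the left, where Ucp1, Cidea and Cox7a1 lie, and mix with them on the right.

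Fatty acid binding protein Fabp3, a carrier in muscle and brown fat, was the not-called gene of lowest p on the higher side, at 0.489, 0.313 and 1.68 CPM in WT and 16.4 and 17.8 CPM in KO. KO was at a log2 fold change of 4.39 over WT (SE 0.59, adjusted p = 0.0626), and its adjusted p was 0.00495 without WT mouse 1812 and 0.145 to 0.321 without any other cold library. The log2 fold change was 5.40 without WT mouse 1812 and 4.00 to 4.44 without the others. The mitochondrial thiolase Acaa2 was at 112, 124 and 125 CPM in WT and 187 and 198 CPM in KO, and the acyl-CoA thioesterase Acot11 at 4.84 to 5.55 CPM in WT and 38.8 and 25.6 CPM in KO. Pdk4, a kinase that blocks pyruvate oxidation, was at 203 to 273 CPM in WT and 351 and 501 CPM in KO. Their groups did not overlap, and none of them was called (adjusted p = 0.174 for Acaa2 and Acot11 and 0.433 for Pdk4). Over the 47 tested genes of mitochondrial and peroxisomal fatty acid oxidation, Cpt1b was called and the median log2 fold change was 0.12. Positive values were found in 37, beside 8629 of 16745 genes tested. At an unadjusted p under 0.05, 7 were higher and 0 lower, beside 3.32% and 2.77% of all genes. Without mouse 1781 the median was 0.46 and 23 were higher, and without mouse 1782 it was -0.15, with 4 higher and 8 lower.

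The tricarboxylic acid cycle and pyruvate oxidation genes were higher in mouse 1782 and near WT in mouse 1781. Of 32 tested, 0 were called, and the median log2 fold change was 0.35. Positive values were found in 29, beside 8629 of 16745 genes tested. At an unadjusted p under 0.05, 7 were higher and 0 lower, beside 3.32% and 2.77% of all genes. Sucla2, a subunit of succinyl-CoA ligase, was at 123 to 152 CPM in WT and 164 and 256 CPM in KO. The median of the list was 0.63 without mouse 1781 and 0.02 without mouse 1782, and the 7 genes became 26 and 0. Respiratory chain genes had 51 of 61 members with a positive log2 fold change and a median of 0.15, which was 0.40 without mouse 1781, -0.16 without mouse 1782 and 0.03 without WT mouse 1773. At an unadjusted p under 0.05, 2 of the 61 were higher and 1 lower, beside 3.32% and 2.77% of all genes. Neither count thus exceeded the share of all genes. The higher ones were Coq8a and Coq10b, which serve coenzyme Q (46.9 and 56.7 CPM in KO against 30.3 to 38.5 CPM in WT for Coq8a). The lower one was Atp5g1, a subunit of the ATP synthase ring (50.5 and 55.0 CPM against 55.5 to 74.5 CPM). Among carriers and dynamics genes, Mtfp1, a fission protein, was at 5.09 to 6.07 CPM in WT and 9.70 and 14.5 CPM in KO, Ppif, cyclophilin D of the permeability pore, at 22.9 to 26.5 CPM in WT and 36.0 and 56.02 CPM in KO, and the list's median was 0.17, or -0.02 without mouse 1782.

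Genes of fatty acid and triglyceride synthesis stood above WT in both KO mice in 14 of 32 members, beside 10% of all genes, and none was called. Glycerol kinase Gk, which returns glycerol to triglyceride, was at 40.8, 33.4 and 53.9 CPM in WT and 121 and 182 CPM in KO (log2 fold change 1.83, SE 0.30, adjusted p = 0.165). Gpd2, the mitochondrial glycerol phosphate dehydrogenase, was at 98.5 to 140 CPM in WT and 219 and 265 CPM in KO, and its cytosolic partner Gpd1 at 650, 1314 and 1324 CPM in WT and 1771 and 2350 CPM in KO. Acetyl-CoA carboxylase 2, Acacb, which regulates mitochondrial fatty acid entry, was at 207 to 239 CPM in WT and 364 and 587 CPM in KO. Fatty acid synthase Fasn was at 3391, 7403 and 7423 CPM in WT and 9152 and 12779 CPM in KO. WT mouse 1773 was the lowest in Fasn and Gpd1, and the median of the list, 0.33, was 0.08 without it. The fructose carrier Slc2a5, from the glucose uptake and glycolysis list, was at 1.81, 4.93 and 5.68 CPM in WT and 23.8 and 14.0 CPM in KO. Lactate dehydrogenase Ldhb, from the same list, was at 67.6 to 70.8 CPM in WT and 84.2 and 138 CPM in KO. That list had 21 of 30 members with a positive log2 fold change, beside 8629 of 16745 genes tested, and a median of 0.21.

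In the adrenergic and cAMP list, 9 of 42 members were higher and 0 lower at an unadjusted p under 0.05, beside 3.32% and 2.77% of all genes. None was called, and the median was 0.06. Gnao1, the alpha subunit of the G protein Go, was at 7.02, 7.34 and 8.30 CPM in WT and 15.8 and 14.2 CPM in KO (log2 fold change 0.99, SE 0.15, adjusted p = 0.118). Adcy10, the soluble adenylyl cyclase, was at 0.707 to 1.55 CPM in WT and 5.61 and 4.23 CPM in KO. Adcy3, a membrane adenylyl cyclase, was at 113, 92.2 and 72.4 CPM in WT and 117 and 244 CPM in KO, with mouse 1781 close to the highest WT mouse. Adrb3, the main beta-adrenergic receptor of mouse adipocytes, had overlapping groups at 65.8 to 95.3 CPM in WT and 69.9 and 71.1 CPM in KO.

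The remaining genes of lowest p on the higher side belonged to no common list. Inmt, a methyltransferase of indoles and amines, was at 49.8 to 78.2 CPM in WT and 160 and 149 CPM in KO, and Apold1, an endothelial response gene, at 60.7 to 94.1 CPM in WT and 173 and 153 CPM in KO. Gmpr, a GMP reductase, was at 5.53 to 6.50 CPM in WT and 13.9 and 36.2 CPM in KO, and the retinol dehydrogenase Dhrs9 at 1.60 to 3.54 CPM in WT and 8.78 and 10.1 CPM in KO. Aspg, an asparaginase, was at 3.62 to 4.81 CPM in WT and 21.0 and 18.3 CPM in KO. Cpn2, a carboxypeptidase N subunit, had values of 0.145 to 0.293 CPM in WT and 1.79 and 0.957 CPM in KO, and Gm9899, which overlaps the potassium channel gene Kcnk3 on the other strand, 6.40 to 9.02 CPM in WT and 21.8 and 28.7 CPM in KO. The adjusted p was 0.084 for Inmt and 0.165 for the other 6.

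On the lower side no gene was called by the quasi-likelihood test. C4b, complement component 4, came nearest, at 529, 633 and 615 CPM in WT and 252 and 257 CPM in KO. KO was at a log2 fold change of -1.22 over WT (SE 0.16, adjusted p = 0.0518), and over the alternatives its adjusted p ran from 3.96e-11 with DESeq2 to 0.436 with the grouping of the titles. Complement C2 was at 74.5, 87.9 and 80.7 CPM in WT and 38.1 and 56.2 CPM in KO, and factor B, Cfb, at 135, 185 and 220 CPM in WT and 80.3 and 114 CPM in KO. Of 21 tested genes of complement and coagulation inhibitors, 18 had a negative log2 fold change, beside 8116 of 16745 genes tested. At an unadjusted p under 0.05, 4 were lower and 1, Hc, higher, beside 2.77% and 3.32% of all genes (Hc was chosen after its value was seen). The median was -0.39, or -0.10 without mouse 1782.

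Among ligands and antagonists of growth factor pathways, Chrdl1, a secreted BMP antagonist, was at 72.9, 68.8 and 63.7 CPM in WT and 35.9 and 43.3 CPM in KO (log2 fold change -0.79, SE 0.12, adjusted p = 0.126). Fgf10, a growth factor of adipocyte progenitors, was at 77.5, 86.7 and 97.6 CPM in WT and 56.8 and 56.6 CPM in KO, and Bmper, a BMP-binding protein, at 46.6 to 49.9 CPM in WT and 28.4 and 24.5 CPM in KO. Their list of 38 genes had 6 lower and 3 higher members at an unadjusted p under 0.05, beside 2.77% and 3.32% of all genes. Its median of -0.03 was -0.37 without mouse 1781 and 0.25 without mouse 1782.

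Several genes of secretion and matrix also lay below WT in both KO mice. Creb3l1, a transcription factor of the secretory pathway, was at 42.2, 50.4 and 54.6 CPM in WT and 28.8 and 22.1 CPM in KO, and the ER prolyl isomerases Fkbp11 and Fkbp14 were at 7.80 to 8.65 and 36.3 to 40.2 CPM in WT, against 4.61 and 4.63 and 26.9 and 21.9 CPM in KO. Xbp1, a regulator of the unfolded protein response, was at 199 to 231 CPM in WT and 164 and 177 CPM in KO. Col15a1, a basement membrane collagen, was at 515, 558 and 659 CPM in WT and 392 and 346 CPM in KO, and the collagen chaperone Serpinh1 at 515 to 681 CPM in WT and 395 and 326 CPM in KO. Spon1, F-spondin, was at 153 to 349 CPM in WT and 88.0 and 105 CPM in KO, while Mmp11, a matrix metalloproteinase, lay above WT at 22.3 and 12.7 CPM against 5.67 to 10.2 CPM. The list of 44 collagens and matrix genes had 8 lower and 2 higher members at an unadjusted p under 0.05, beside 2.77% and 3.32% of all genes. The higher ones were Mmp11 and Mmp2 (Mmp2 chosen after its value was seen). Both KO mice were below all WT mice in 11 of the 44, beside 9.07% of all genes, and the median of -0.14 was -0.45 without mouse 1781 and 0.12 without mouse 1782.

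Aldh1l2, the mitochondrial formyltetrahydrofolate dehydrogenase, was at 10.9, 8.10 and 10.3 CPM in WT and 5.34 and 3.97 CPM in KO (log2 fold change -1.07, SE 0.20, adjusted p = 0.259). Limk1, a kinase of the actin regulator cofilin, was at 27.4 to 30.4 CPM in WT and 19.6 and 17.8 CPM in KO, and the aminopeptidase Enpep at 148 to 173 CPM in WT and 113 and 112 CPM in KO. Adamts19, a secreted protease, was at 2.86 to 4.74 CPM in WT and 1.17 and 0.837 CPM in KO, and Fam83e at 4.46 to 8.71 CPM in WT and 1.09 and 1.20 CPM in KO. Vnn1, a pantetheinase that recycles pantothenate from coenzyme A breakdown, was at 8.17 to 14.8 CPM in WT and 3.27 and 5.82 CPM in KO.

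Among general and white adipocyte genes, Agt, angiotensinogen, was at 34.4, 53.2 and 28.7 CPM in WT and 10.2 and 18.8 CPM in KO. Irs3, an insulin receptor substrate of rodent adipocytes, was at 17.9 to 32.8 CPM in WT and 9.52 and 15.2 CPM in KO, and Sncg, gamma-synuclein, at 181 to 351 CPM in WT and 87.4 and 131 CPM in KO. Lep, leptin, had 132, 281 and 421 CPM in WT and 85.8 and 189 CPM in KO, which overlapped. Of the 32 tested genes of this list 0 were called, and 26 had a negative log2 fold change, beside 8116 of 16745 genes tested. The median was -0.29, but it was 0.13 without mouse 1781 and -0.90 without mouse 1782. Adipoq, adiponectin, shows the spread, at 1369, 1846 and 1599 CPM in WT and 593 and 1694 CPM in KO. Fabp4 and Lpl were lowest in mouse 1781 as well (4819 CPM against 6599 to 8772 CPM in the other 4 mice for Fabp4, and 3918 CPM against 5773 to 8627 CPM for Lpl), and the sign of all 3 log2 fold changes turned positive without that mouse. In bulk samples fewer cells of a type and less RNA per cell cannot be told apart.

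**Figure D3:**
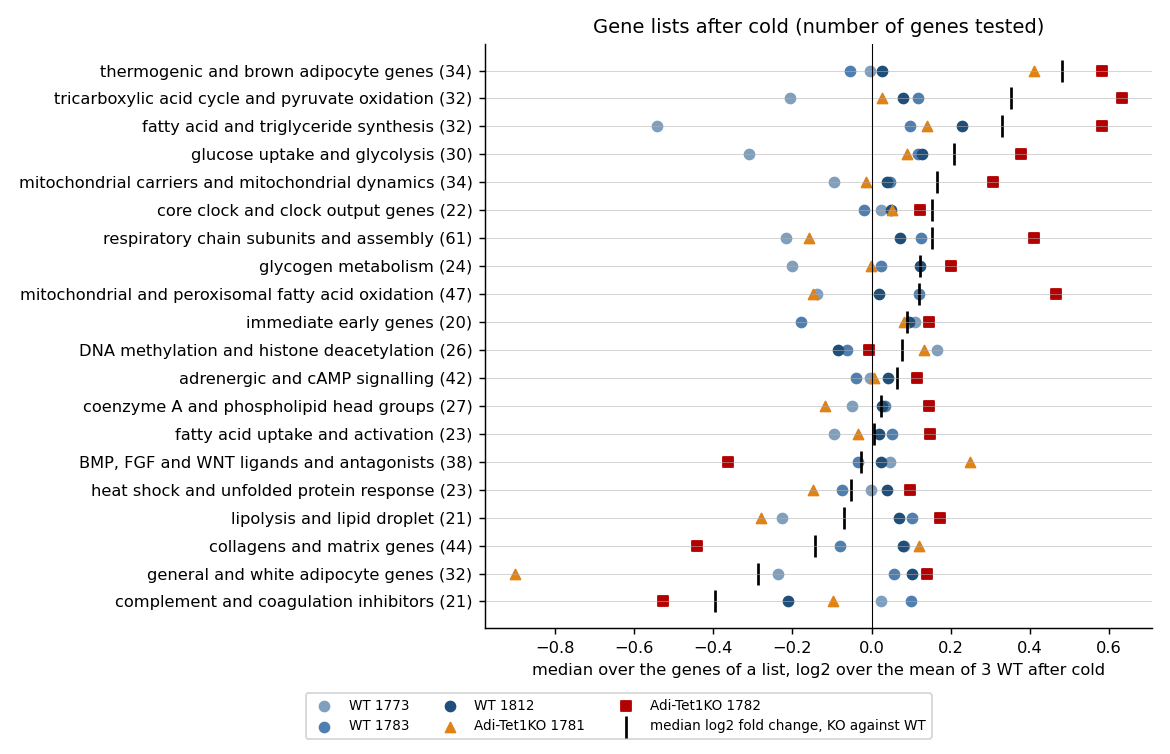
Median over the tested genes of each of 20 lists in each cold library, as the log2 of CPM + 0.1 over the WT mean, with the fitted median marked by a bar. Thermogenic genes stand at 0.41 and 0.58 in the KO mice, while KO mouse 1781 lies at -0.90 for general and white adipocyte genes and mouse 1782 at 0.63 for the tricarboxylic acid cycle.

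Markers of other cell types moved with single mice. Over all 16745 genes tested, 8629 log2 fold changes were positive and 8116 negative. Keratinocyte genes were higher in KO mouse 1781 than in the other 4 mice, with Lor, loricrin, at 8.82 CPM against 0.209 to 0.558 CPM and Krtdap at 8.68 CPM against 0.0399 to 0.209 CPM. All 13 tested genes of that list had a positive log2 fold change and the median was 2.65, but it was -0.13 without mouse 1781. The 12 adipocyte markers summed to 13460 CPM in mouse 1781, against 23537 to 31224 CPM in WT and 31600 CPM in mouse 1782. Of the 12, 11 had a negative log2 fold change, with a median of -0.31 that was 0.16 without mouse 1781. Fabp4 and Cfd, at 4819 and 3142 CPM in mouse 1781, are also in the general and white adipocyte list. The marker sum is thus not separate from that list. Macrophage markers summed to 1299 to 1668 CPM in WT, 1667 CPM in mouse 1781 and 1032 CPM in mouse 1782, with 14 of 18 negative and a median of -0.39, or -0.01 without mouse 1782, and fibroblast and progenitor markers to 12522 to 14498 CPM in WT, 14968 CPM in mouse 1781 and 10226 CPM in mouse 1782. Of the 14 fibroblast markers, 3 (Col1a1, Col3a1 and Fbn1) are also in the matrix list, and the other 11 summed to 3258 to 3465 CPM in WT, 3851 CPM in mouse 1781 and 2943 CPM in mouse 1782. The part of cell makeup in these values was not tested. The 7 erythrocyte markers summed to 268 CPM in mouse 1781 and 660 to 1609 CPM in the other 4 mice.

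Cpt1b, Cox7a1, Fabp3 and Perm1 are also genes of striated muscle. Of 16 tested skeletal muscle markers, 10 lay above WT in both KO mice and 2 below, beside 10% and 9.07% of all genes. At an unadjusted p under 0.05, 9 of the 16 were higher and 1 lower, beside 3.32% and 2.77% of all genes, and none was called. Atp2a1, the fast muscle calcium pump, was at 1.07, 0.626 and 0.880 CPM in WT and 4.03 and 4.11 CPM in KO, and Tnnt3, fast troponin T, at 0.391 to 1.09 CPM in WT and 3.60 and 4.23 CPM in KO. Ckm, muscle creatine kinase, was at 0.176 to 1.13 CPM in WT and 3.66 and 5.30 CPM in KO, while Mb, myoglobin, lay below WT at 7.48 and 11.8 CPM against 12.98 to 20.7 CPM. The summed level of the 16 markers overlapped, at 68.5 to 98.8 CPM in WT and 51.2 and 96.4 CPM in KO, and the median log2 fold change was 1.06, with 0.98 to 1.15 when 1 cold library was left out. None of the 16 was at 0 in all cold libraries, and their part in the values of Cpt1b, Cox7a1, Fabp3 and Perm1 was not tested. Of the mesothelial markers, Upk3b had 229 counts over the 3 WT mice and 0 over both KO mice, at least 50.3-fold lower against a floor of 3 counts over the group, and Wt1 118 counts and 0, at least 25.9-fold lower. Without WT mouse 1773 these bounds were 22.9 and 8.22. WT mouse 1812 was also near 0, with 1 and 0 counts. At room temperature both genes had 0 counts in both KO mice, and 16 and 65 (Upk3b) and 26 and 56 (Wt1) in WT. The summed level of the 6 mesothelial markers overlapped after cold, at 914 to 1154 CPM in WT and 949 and 899 CPM in KO, and 1 of the 6 had a positive log2 fold change.

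**Figure D4:**
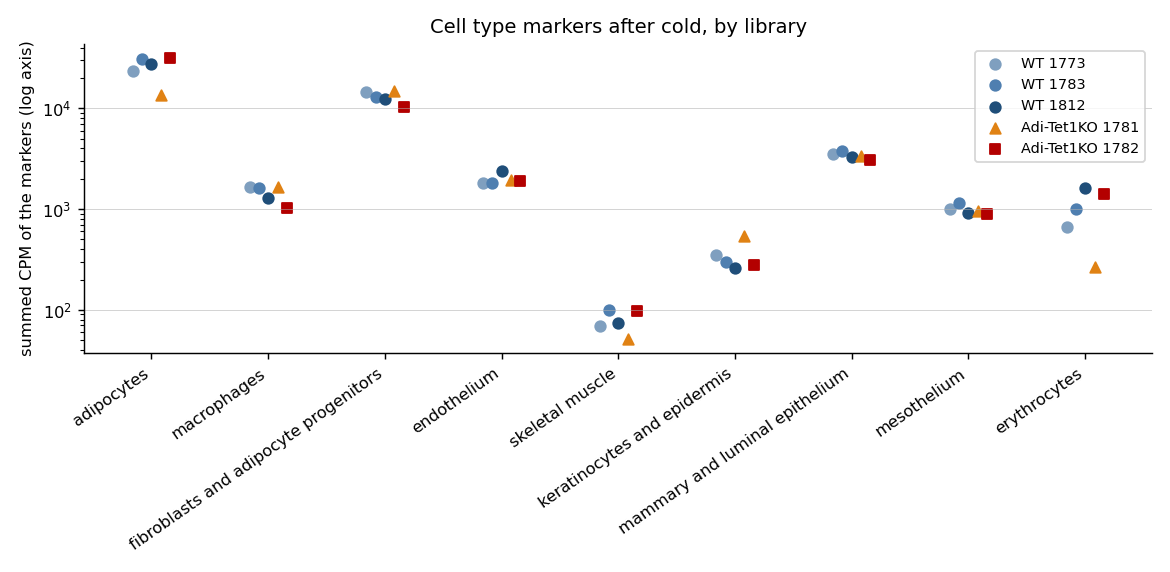
Summed CPM of the markers of 9 cell types in the 5 cold libraries on a log axis. KO mouse 1781 is lowest for adipocytes (13460 CPM) and erythrocytes (268 CPM) and highest for keratinocytes (544 CPM), and KO mouse 1782 is lowest for macrophages (1032 CPM).

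The comparison of the same genotypes at room temperature, in 4 other mice, called 6 genes higher in KO (0.0358%) and 0 lower. These were Slc27a2, Cox7a1, Ppp1r3b, Myt1l, Gm44502 and Cpt1b, and all were also called after cold. The overlapping Gm44502 and Cpt1b are not separate calls. The test of the difference between the 2 KO effects called 0 genes (0%), so none of the 13 is shown to respond to genotype in the cold alone. At an unadjusted p under 0.05 this test gave 458 of the 16745 genes tested, a smaller share than the threshold itself. For the same difference DESeq2 called 2 genes as higher and 3 as lower in the cold, and the likelihood ratio test 2 and 2. Side by side, Slc27a2 had log2 fold changes of 3.66 (SE 0.22) after cold and 2.60 at room temperature, Phospho1 2.23 (SE 0.16) and 1.12, and Dagla 1.45 (SE 0.13) and 0.71. Their differences were 1.06, 1.11 and 0.74, at unadjusted p values of 0.012, 0.00148 and 0.00482 from the quasi-likelihood test and an adjusted p of 1.00 for each. For Cpt1b the values were 2.88 and 3.33, for Cox7a1 2.28 and 2.19, for Ppp1r3b 1.63 and 1.78 and for Cidea 2.50 and 2.13. Ucp1 had the larger log2 fold change at room temperature, 5.65 against 2.85, with a difference of -2.79 that was not called (quasi-likelihood test, unadjusted p = 0.0106, adjusted p = 1.00). Its room temperature levels were 14.5 and 3.15 CPM in WT and 261 and 623 CPM in KO, so the WT base was low and varied. The means were 8.81 CPM in WT and 442 CPM in KO at room temperature, and 176 and 1273 CPM after cold.

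**Figure D5:**
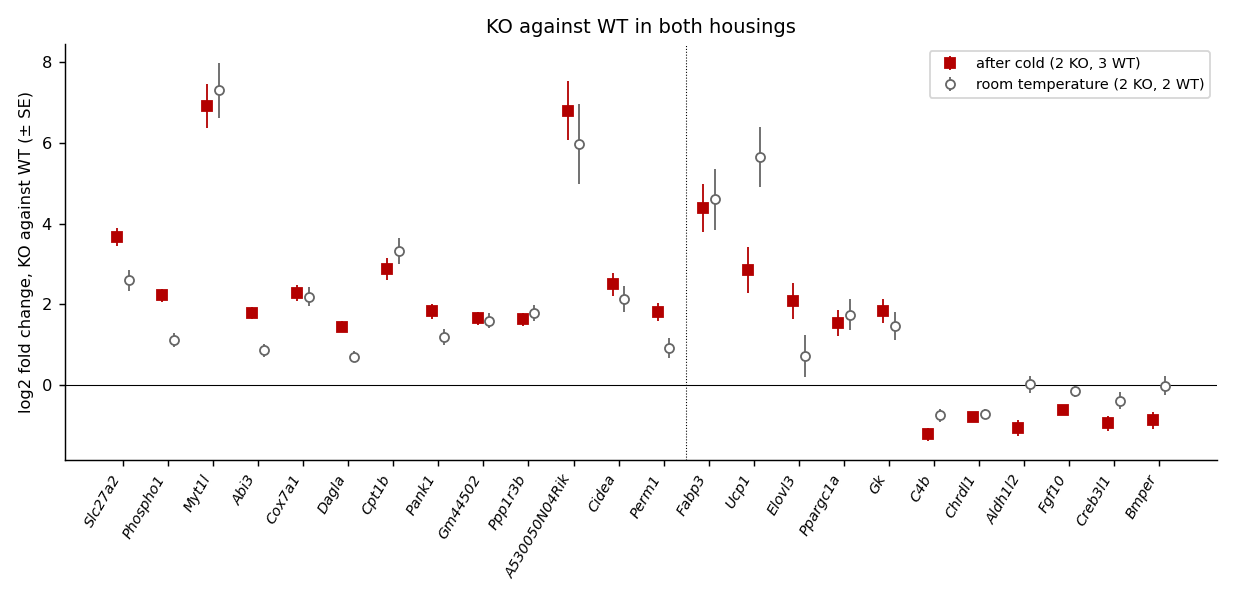
Log2 fold change of KO against WT with its SE for the 13 called genes (left of the dotted line) and 11 further genes, after cold (squares) and at room temperature (open circles). Called genes are above 0 in both housings, Slc27a2 with 3.66 and 2.60, and Ucp1 is farther from 0 at room temperature (5.65).

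On the lower side Chrdl1 was at -0.79 (SE 0.12) after cold and -0.71 at room temperature. C4b had -1.22 and -0.75. Aldh1l2 had -1.07 and 0.02 and Bmper -0.88 and -0.01, with differences of -1.09 and -0.87 at unadjusted p values of 0.00474 and 0.0229 from the quasi-likelihood test, and neither passed the adjustment.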

How the data were processed

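The series measured RNA of inguinal fat from 9 mice, 1 library per mouse, and the 5 cold libraries (3 WT, 2 KO) are described here. The authors aligned BGISEQ reads with STAR to UCSC mm10, kept reads with 1 mapping place, dropped those of mitochondria and assigned the rest to genes by featureCounts, and these whole counts were deposited for 24539 genes. For versions, annotation and strand setting, nothing is given in the sources used here. The deposited RPKM columns were not used.

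Counts were fitted with edgeR 4.0.16 in R 4.3.3 (filterByExpr, TMM, robust quasi-likelihood, 9 libraries in 4 groups), with Benjamini-Hochberg adjustment over 16745 genes. SE was taken as |log2 fold change| over the root of the F statistic. DESeq2 1.42.0, the likelihood ratio test, RLE, upper quartile, no filter, cold libraries alone, other groupings and leaving out each cold library were tried. The fit was tested on simulated data, and figures used matplotlib 3.10.9. Positions are from GENCODE vM21 (GRCm38) by symbol.

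Depth was 47605902 to 56292251 counts per library. Genes named are the called genes (at most 30), the 12 of lowest p per direction among the others, from each of 20 pathway and 13 marker lists up to 4 of lowest p and 2 of highest level, genes that the study names, and up to 10 genes called for the difference between housings. The members and lists were chosen with earlier results of these data known. Lists not described in the report are given in the closing section.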

Additional observations from a re-analysis of the deposited data

How the results depend on the processing

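The groups hold 2 and 3 mice, so 1 library can decide a call, and p-values rest on a spread shared by all 4 groups. Where 1 library was left out of a group of 2, the remaining one is assumed to vary like the other groups.

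With DESeq2 and the likelihood ratio test, 66 and 74 genes were called higher after cold and 35 and 30 lower, against 13 and 0. At room temperature they called 61 and 53 higher and 58 and 56 lower, against 6 and 0, and for the difference of the KO effects 2 and 2 higher and 3 and 2 lower, against 0 and 0. Without the filter on low counts 1 gene was lower after cold and 1 at room temperature. The grouping of the titles gave 8 higher and 16 lower genes after cold, and leaving out mice 1781 and 1786 gave 21 and 6. Leaving out 1 cold library gave 7 to 14 higher genes (8 without WT mouse 1773, 7 without 1783, 14 without 1812, 12 without KO mouse 1781, 9 without 1782) and 0 to 1 lower genes. RLE and upper quartile factors kept all 13 calls. The adjusted p alone is the same fit without the fold threshold, so it could not lose a call.

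Signs turned in a few genes that were not called. With the grouping of the titles the log2 fold changes were 0.015 for Xbp1, 0.00798 for Lpl, 0.0907 for Adipoq, 1.49 for Adrb3 and -1.07 for Krtdap. Without mice 1781 and 1786 they were -0.0934 for Tet3, 0.14 for Fabp4, 0.258 for Lpl, 0.0715 for Adipoq and -1.93 for Krtdap. With 1 cold library left out Tet3 ranged from -0.0931 to 0.241, Fabp4 from -0.685 to 0.14, Lpl from -0.875 to 0.258, Adipoq from -1.44 to 0.0717 and Krtdap from -1.93 to 5.76. The cause was not tested. Tet1 after cold ranged from 0.266 to 1.21 with 1 library left out.

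With RLE factors the housing medians of mouse 1781 were 1.18 and -1.015, against 1.194 and -1.001, and those of mouse 1786 0.269 and -0.0848, against 0.263 and -0.0907; at an adjusted p under 0.01 the check had no genes. Leaving out each WT library from pooled count ratios and bounds, and the fibroblast sum without shared genes, were chosen after seeing the data. No paired analysis was possible because each mouse number occurs in 1 group only.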

Other observations

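The other metabolic lists had fitted medians of -0.07 to 0.12 after cold, and KO mice 1781 and 1782 differed in each. Over the WT mean, the medians in these mice were -0.28 and 0.17 for lipolysis and lipid droplet genes. They were -0.12 and 0.15 for coenzyme A and phospholipid genes and -0.03 and 0.15 for fatty acid uptake and activation. For glycogen genes they were -0.0003 and 0.20. Among 23 genes of fatty acid uptake and activation, Slc27a2 was called, and the median log2 fold change was 0.01. At an unadjusted p under 0.05, 4 were higher and 1 was lower, beside 3.32% and 2.77% of all genes. Acss1, a mitochondrial acetyl-CoA synthetase, was at 18.7 to 19.2 CPM in WT and 26.9 and 34.4 CPM in KO and was not called. The 21 lipolysis and lipid droplet genes, with Dagla called, had a median of -0.07, and Plin5, a perilipin of oxidative tissues, was at 7.34 to 13.7 CPM in WT and 15.4 and 27.1 CPM in KO. Glycogen genes, with Ppp1r3b called, had a median of 0.12. At an unadjusted p under 0.05, 5 of the 24 were higher and 0 lower, beside 3.32% and 2.77% of all genes. The coenzyme A and phospholipid list, with Phospho1 and Pank1 called, had a median of 0.02. Hadha, a subunit of the trifunctional oxidation enzyme, was at 406 to 486 CPM in WT and 509 and 709 CPM in KO, and Slc25a34, a mitochondrial carrier family member, at 1.96 to 2.74 CPM in WT and 3.99 and 9.29 CPM in KO. The phosphodiesterase Pde7b was at no more than 31.7 CPM in WT and 39.4 and 40.2 CPM in KO.

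Regulatory lists without a called gene had medians of 0.15 for 22 clock genes, 0.08 for 26 genes of DNA methylation and histone deacetylation, 0.09 for 20 immediate early genes and -0.05 for 23 heat shock and unfolded protein genes. Cell type lists whose medians were not given above had 0.05 for neutrophils and mast cells, -0.16 for lymphocytes and -0.12 for fibroblasts and progenitors. The medians were -0.09 for endothelium, -0.19 for smooth muscle, 0.24 for mammary epithelium, 0.29 for nerve and -0.38 for erythrocytes, and the 6 mesothelial markers had -2.54. By library, erythrocyte medians over the WT mean were -0.73 to 0.57 in WT, -2.03 in KO mouse 1781 and 0.36 in KO mouse 1782. Siglec1, a marker of resident macrophages, was at 64.5, 58.2 and 42.5 CPM in WT and 43.7 and 22.3 CPM in KO, and Prtn3, a serine protease of neutrophils, at 5.24 to 13.1 CPM in WT and 1.89 and 3.41 CPM in KO. Dlk1, a preadipocyte factor, was at 1.92 to 3.69 CPM in WT and 1.64 and 1.44 CPM in KO. None of these genes was called.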
